A study of Saccharomyces cerevisiae with 12 samples.

Results

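Budding yeast (Saccharomyces cerevisiae) that had been back in fresh liquid medium for 240 min were compared with cells that were still quiescent. The comparison covered every gene whose normalised read count averaged at least 10 over the 12 libraries of the series, which kept 5871 of 6120 genes. Each change is between 6 of the 12 libraries, 3 on each side. The spread behind each SE, interval and p-value was estimated from all 12 libraries. The cells called E240 here were strain pJD47, starved as below, washed free of acetate and sampled 240 min after the change of medium, which the labels describe as liquid and no further. The quiescent cells, called Q, were the same strain, grown in synthetic complete medium with 2% glucose and then kept in water that held 10 mM deuterated acetate for 7 days. Cells at 30 min of exit (E30) and in logarithmic growth (LOG), with 3 libraries each, are given beside them where a time course helps. The labels name the strain but no genotype or mating type, so every value is from 1 strain, and the labels' wording for the 3 libraries of a group, biological replicates, does not say whether they were separate cultures. The p-values therefore measure the spread between libraries within the 4 groups, E30 and LOG included, part of which may be technical.

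A yeast cell that runs out of glucose stops dividing and turns from fermenting sugar to burning acetate, fatty acids and its own stores. Acetate is then activated to acetyl-CoA, carried between compartments as acetylcarnitine and turned into sugar through the glyoxylate cycle, while trehalose, glycogen and protective proteins build up. When glucose returns, nutrient signals through Ras, protein kinase A and the TOR kinase turn the genes of ribosome assembly and fermentation back on, and glucose repression turns the genes for other carbon sources off.

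After 240 min the RNA of the ribosome, of the enzymes that charge transfer RNA and of glycolysis was higher than in quiescent cells, and the RNA for acetate, fatty acid and carnitine metabolism was lower. At some metabolic steps with several isozymes one gene was higher and another lower. The list medians in log2 units were 2.12 for 137 cytosolic ribosomal protein genes and 2.20 for 16 glycolytic genes, against -3.28 for 22 genes of gluconeogenesis and acetate use and -4.50 for 5 genes of the carnitine shuttle. Fold changes here are log2 differences between group means of log2(normalised count + 1), given as value ± SE, with the adjusted p of limma. RNA was measured in bulk, so fewer cells with a transcript and less of it per cell cannot be told apart.

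Of the 5871 genes, 3442 (58.6%) differed at an adjusted p under 0.05. Of these, 1708 (29.1%) were higher in E240 cells and 1734 (29.5%) lower, and 1217 (20.7%) and 1326 (22.6%) of all genes tested also changed at least 2-fold. The larger changes were mostly decreases: 376 genes rose and 548 fell at least 4-fold, and 39 rose and 192 fell at least 8-fold. The median change over all genes was 0.01, with quartiles at -0.92 and 0.85. Counts called within a list are to be read against the 29.1% higher and 29.5% lower among all genes. List counts from other fits have other backgrounds. With the replicate number as a block, 2010 genes were higher and 1991 lower, and with replicates 2 and 3 alone, 2318 and 2309. Under total-count scaling the numbers were 1375 and 2028. Scaled to total counts instead of the authors' factors, the median moved by -0.196, and 959 genes rose and 1578 fell at least 2-fold. The E240 libraries held 11572190 to 12428294 recovered reads and the Q libraries 1195233 to 5220494, so a read was worth 6.97 units in Q replicate 1 and 1.46 or 1.70 in the other Q libraries. In both groups replicate 1 stood apart from replicates 2 and 3: its median distance from their mean was 0.388 log2 units in E240 and 0.387 in Q, while replicates 2 and 3 differed from each other by 0.0678 in E240 and 0.130 in Q.

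**Figure D1:**
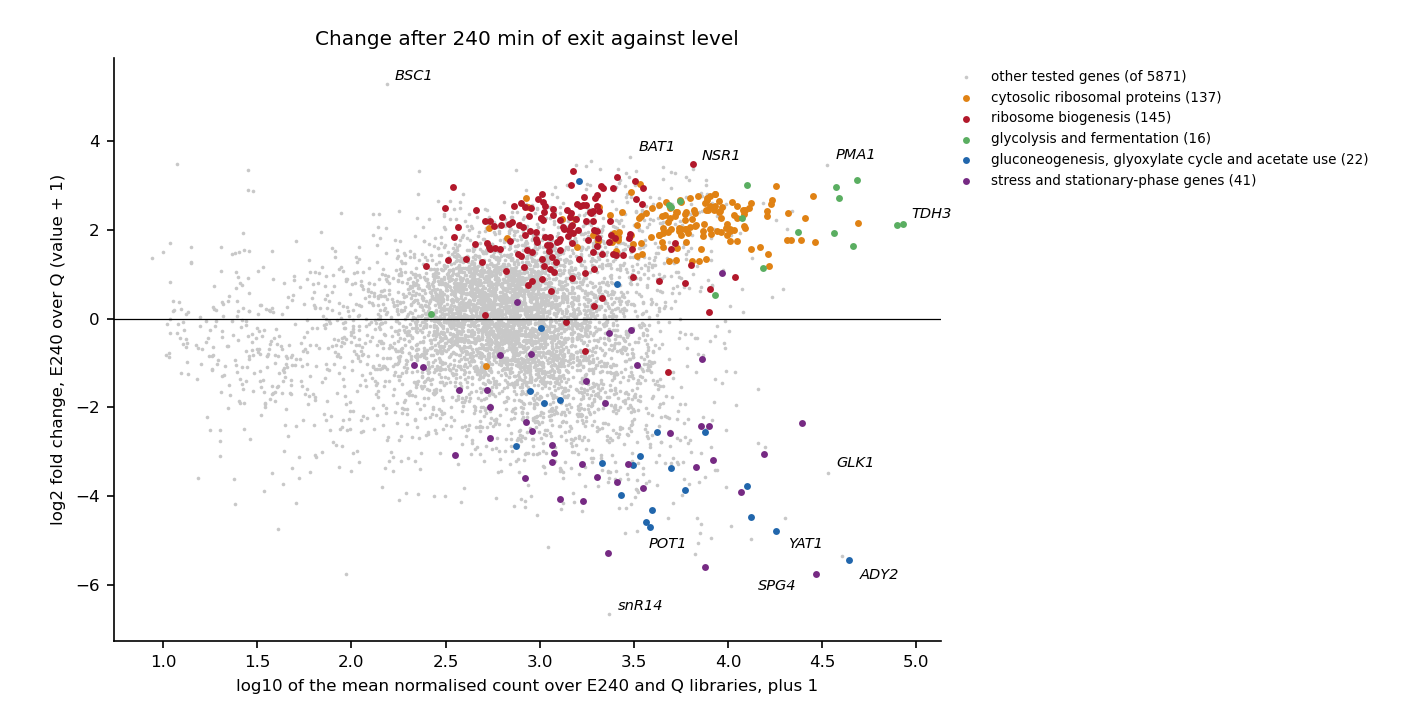
Each point is 1 of 5871 genes, with the log10 of its mean normalised count over the E240 and Q libraries (plus 1) on the x axis and its log2 fold change, E240 over Q, on the y axis. Ribosomal protein (137), ribosome biogenesis (145) and glycolytic genes (16) lie mostly above 0, and genes of acetate use (22) and stress (41) mostly below, down to ADY2 at -5.45 and SPG4 at -5.75.

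Genes of cytosolic ribosomal proteins rose almost without exception. Of the 137 tested genes, 133 were called higher and none lower, beside 29.1% called higher among all genes, and the 3 E240 libraries did not overlap the 3 Q libraries for 136 of them, beside 69.8% of all genes. The lowest change on the list was -1.08. With the replicate number as a block, or without the LOG libraries, 1 gene was called lower. RPS1A, which encodes a protein of the small subunit (YLR441C, chromosome XII, 1018141 to 1018908, minus strand), had 23086, 36853 and 36085 in the E240 libraries, against 4498, 3756 and 3718 in the Q libraries. Every E240 library was above every Q library, and the change was 2.98 ± 0.32 (adjusted p = 1.1e-05). RPL33B of the large subunit had 4452, 7105 and 6597 in E240 and 753, 733 and 695 in Q (3.03 ± 0.26, adjusted p = 2.33e-06). Many of these genes come in near-identical pairs whose reads the authors' counting could split, so values of single copies are uncertain.

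These genes moved late. Ribosomal protein genes took 5.18% of all values in Q, 6.13% in E30, 19.7% in E240 and 18.1% in LOG. By library the share was 17.3%, 21.2% and 20.8% in E240, against 4.37%, 5.74% and 5.43% in Q. At 30 min 7 of the 137 were called higher and 2 lower than in Q, with a median of 0.07. The E30 and E240 comparisons share the Q libraries.

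Genes that build ribosomes behaved otherwise in time. Of 145 ribosome biogenesis genes, 135 were higher and 2 lower at 240 min, with a median of 1.87, and the median at 30 min was already 1.80. Their share of the library was 1.61% in Q, 5.05% in E30, 4.17% in E240 and 2.35% in LOG. NSR1, the yeast nucleolin that acts in processing of ribosomal RNA (YGR159C, chromosome VII, 806412 to 807656, minus strand), had 8721, 13841 and 13295 in E240, against 1283, 968 and 940 in Q. The groups did not overlap, and the change was 3.47 ± 0.24 (adjusted p = 5.86e-07). CIC1, which acts in maturation of the large subunit, had 1938, 3081 and 3187 in E240 and 293, 267 and 237 in Q (3.33 ± 0.21, adjusted p = 4.33e-07). NOP14, a part of the small subunit processome, had 3548, 5181 and 5187 in E240 and 537, 550 and 429 in Q (3.18 ± 0.21, adjusted p = 4.63e-07). In all of these, E240 replicate 1 was the lowest E240 library.

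The 2 exceptions were NOP16 and SPB4, both of large subunit assembly. NOP16 fell, with 2778, 2882 and 3049 in E240 against 6520, 7815 and 5761 in Q (-1.20 ± 0.28, adjusted p = 0.00297). SPB4, a helicase gene, fell by 0.74 ± 0.21 (adjusted p = 0.0106), and without Q replicate 2 it no longer passed (adjusted p = 0.0521).

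The promoters of the assembly genes share short sequences. The PAC motif (GCGATGAG) and the RRPE motif (AAAATTTT) are known from promoters of ribosome biogenesis genes. They were searched on both strands in the 250 bases before the start codon of each protein-coding nuclear gene. PAC stood in 73 of 145 ribosome biogenesis promoters (50.3%) and in 3.96% of the 5759 promoters of all tested genes, and RRPE in 108 (74.5%) and in 8.86%. Among all genes that rose at least 4-fold, 14.9% held PAC and 33.8% RRPE, and among those that fell at least 4-fold, 0.783% and 3.33% did. The 228 genes with PAC had a median change of 1.19 and the 5531 without it -0.01. To show how the motifs lie, the first 150 of those 250 bases are printed for NSR1, CIC1, NOP14 and the RNA polymerase I subunit gene RPA49, from the R64 reference of NCBI RefSeq, with PAC and RRPE in capitals. They lie at chrVII:807757-807906 (minus strand), chrVIII:210598-210747 (plus), chrIV:190687-190836 (minus) and chrXIV:182709-182858 (minus).
NSR1: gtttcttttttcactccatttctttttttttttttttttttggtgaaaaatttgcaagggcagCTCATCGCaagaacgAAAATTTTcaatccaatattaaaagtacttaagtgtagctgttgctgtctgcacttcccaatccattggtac
CIC1: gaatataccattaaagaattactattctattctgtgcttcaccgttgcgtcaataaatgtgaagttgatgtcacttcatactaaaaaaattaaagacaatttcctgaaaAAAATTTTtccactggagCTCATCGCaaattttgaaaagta
NOP14: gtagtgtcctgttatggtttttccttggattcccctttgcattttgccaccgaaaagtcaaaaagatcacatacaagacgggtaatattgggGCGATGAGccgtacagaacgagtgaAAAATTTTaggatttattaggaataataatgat
RPA49: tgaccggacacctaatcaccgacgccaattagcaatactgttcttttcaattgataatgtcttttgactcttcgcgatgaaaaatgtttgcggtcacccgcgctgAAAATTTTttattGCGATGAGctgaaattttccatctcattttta
In NSR1 and CIC1 the PAC letters are read on the other strand (CTCATCGC), and RRPE reads the same on both strands. In NSR1 and NOP14 PAC is the farther motif from the start codon, and in CIC1 and RPA49 it is the nearer. A match of letters is a description and does not show that a factor binds there.

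RNA polymerases I and III and the translation machinery rose too. Of 20 polymerase subunit genes 15 were higher and none lower (median 1.83), RPA49 with 1875, 2760 and 2822 in E240 against 425, 261 and 249 in Q (3.01 ± 0.29, adjusted p = 5.24e-06). All 19 tested cytosolic tRNA synthetase genes were higher, by 1.60 to 3.06 (median 2.19). MES1, the methionyl-tRNA synthetase gene, had 3828, 5170 and 5192 in E240 against 516, 577 and 594 in Q. Of 37 translation factor genes 33 rose and 1 fell (median 1.83). RPG1, the largest subunit of initiation factor eIF3, had 5000, 4666 and 4429 in E240 and 795, 405 and 295 in Q (3.36 ± 0.33, adjusted p = 5.72e-06). RLI1, an ATPase that recycles ribosomes, was at 3.46 ± 0.30 (adjusted p = 2.14e-06). The decrease was that of CAM1, a gene for an elongation factor 1B subunit, with 1281, 1263 and 1271 in E240 against 3571, 3780 and 3977 in Q (-1.57 ± 0.21, adjusted p = 6.01e-05). RRPE stood in 62.2% of the translation factor promoters and PAC in 2.70%. Of 68 mitochondrial ribosomal protein genes 16 were higher and 9 lower, with a median of 0.20, but with total-count scaling 10 were higher and 13 lower. With the replicate number as a block 26 were higher, without E240 replicate 2 or E240 replicate 3 10 were, and without Q replicate 2 5 were lower.

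**Figure D2:**
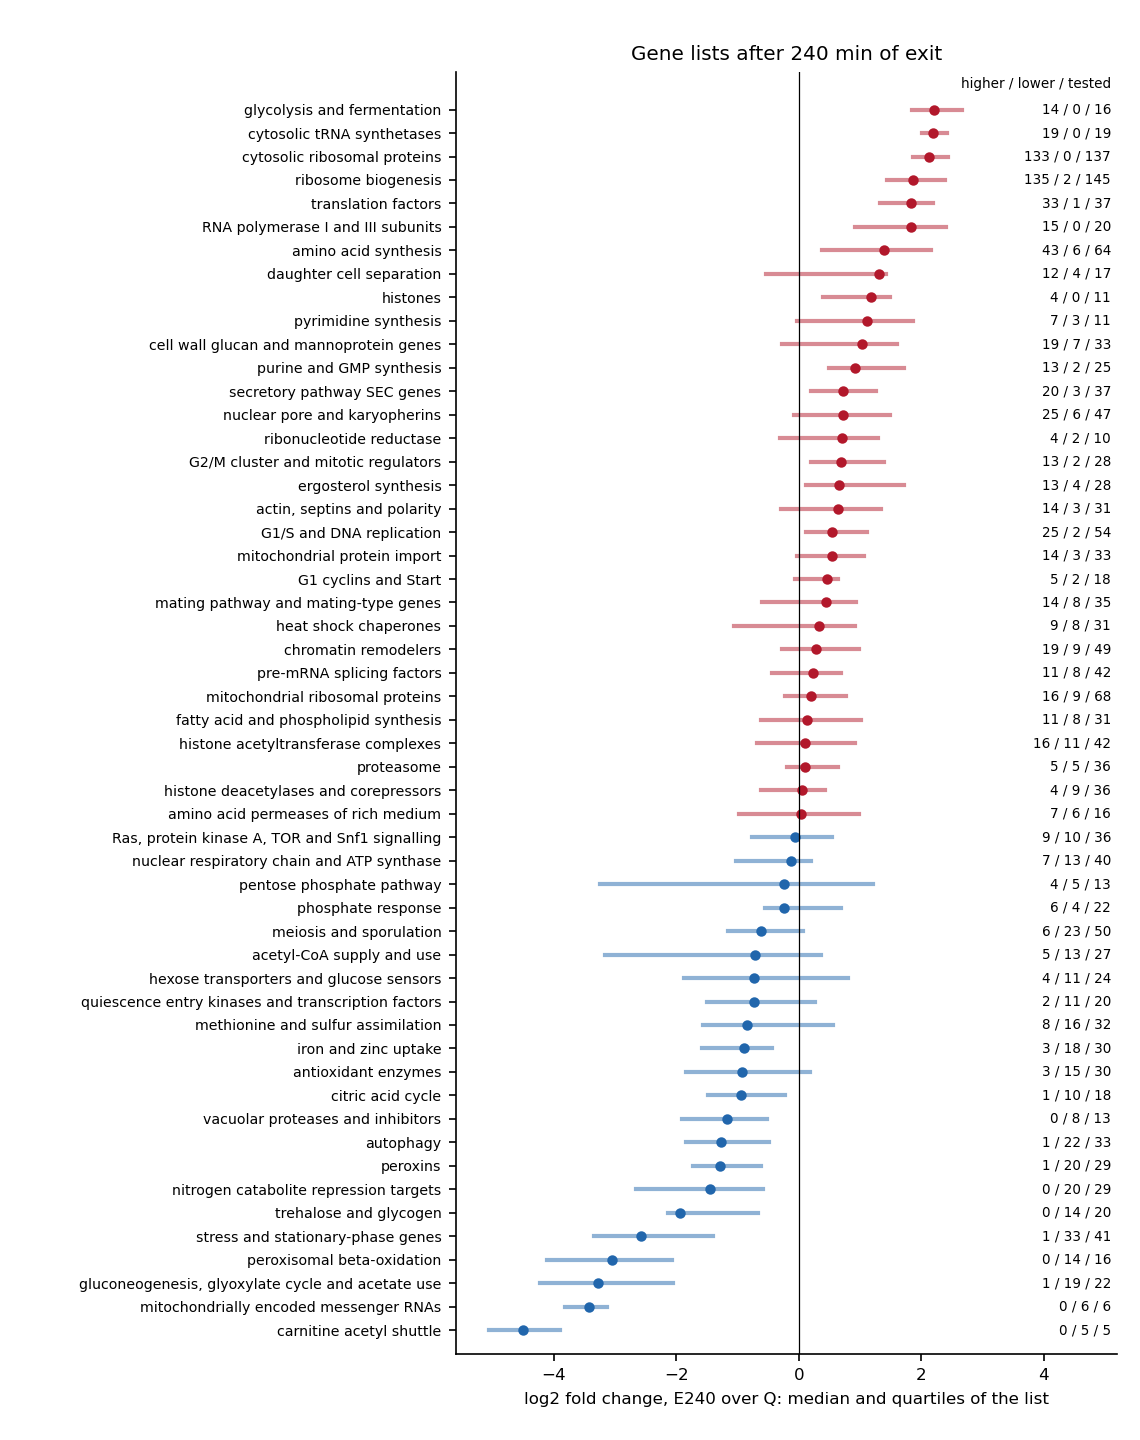
For each gene list the point is the median log2 fold change, E240 over Q, of its tested genes and the line spans the quartiles, with the numbers of genes called higher, called lower and tested at the right. Glycolysis, tRNA synthetases and ribosomal proteins lead at 2.12 to 2.20, and the carnitine shuttle is last at -4.50.

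RNA of glycolysis and fermentation genes was higher. Of 16 glycolysis and fermentation genes 14 were higher and none lower (median 2.20), and their share of the library was 8.84%, 8.23% and 7.87% in E240, against 1.88%, 2.26% and 2.07% in Q. ENO2, the enolase gene induced by glucose (YHR174W, chromosome VIII, 451327 to 452640, plus strand), had 78254, 93630 and 88075 in E240 against 8878, 11144 and 10087 in Q (3.11 ± 0.37, adjusted p = 1.93e-05). CDC19, the main pyruvate kinase gene, had 70059, 67598 and 62441 in E240 and 8640, 8958 and 7950 in Q (2.97 ± 0.27, adjusted p = 3.25e-06). Every E240 library of both genes was above every Q library. PGI1, the phosphoglucose isomerase gene, was at 3.01 ± 0.22 (adjusted p = 7.76e-07). The aldolase gene FBA1 had 116835 in E240 replicate 1 and 49179 and 48708 in replicates 2 and 3, against 23076, 20774 and 19655 in Q. Its change of 1.63 ± 0.53 (adjusted p = 0.0188) did not pass without E240 replicate 1 (adjusted p = 0.0821) or Q replicate 3 (0.0517). TDH3, ADH1, ENO2, RPS31, FBA1, PGK1, CDC19 and PMA1 had the 8 highest mean counts per gene in E240 cells, counts that are not divided by gene length, at 0.672% to 1.52% of the library each. In Q cells those 8 genes held 0.0685% to 0.399% each.

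Of 24 hexose transporter and glucose sensor genes 4 were higher and 11 lower. HXT1 and HXT3, transporters of low affinity used at high glucose, were at 2.43 ± 0.38 (adjusted p = 0.000182) and 1.89 ± 0.31 (adjusted p = 0.000269). HXT5, a transporter of slow-growing cells, fell, with 781, 807 and 765 in E240 against 22686, 17985 and 19369 in Q (-4.67 ± 0.45, adjusted p = 5.17e-06).

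Genes for the uptake and shuttling of acetate were among those that fell furthest. ADY2, whose product takes up acetate (YCR010C, minus strand of chromosome III, 132273 to 133124), had 1329, 2470 and 2303 in E240, against 89047, 76618 and 92923 in Q. The groups were far apart, and the change was -5.45 ± 0.41 (adjusted p = 9.6e-07). It had the highest mean count per gene in quiescent cells, where it held 1.09% of the library, against 0.0222% in E240. YAT1, a carnitine acetyltransferase gene (YAR035W, chromosome I, 190193 to 192256, plus strand), had 1470, 2326 and 1937 in E240 and 99989, 62757 and 73290 in Q (-5.36 ± 0.44, adjusted p = 1.78e-06). YAT2, another carnitine acetyltransferase gene, was at -4.50 ± 0.25 (adjusted p = 2.29e-07), and CRC1, the mitochondrial carrier of acetylcarnitine, at -5.06 ± 0.27 (adjusted p = 1.53e-07). All 5 genes of the carnitine shuttle were lower, and their share of the library was 0.0509% ± 0.00171 in E240 and 1.73% ± 0.412 in Q (SD, n = 3 each). YAR035C-A, an open reading frame next to YAT1 on the other strand, was at -5.15 ± 0.26 (adjusted p = 9.09e-08). It lies at 192337 to 192417, close past the end of YAT1, and the labels do not say whether counting used the strand. Whether reads of YAT1 were counted there was not tested.

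Among 22 genes that serve acetate use, gluconeogenesis or the glyoxylate cycle, 19 were lower and 1 higher, beside 29.5% lower among all genes. Their share was 0.261%, 0.245% and 0.239% in E240, against 3.91%, 2.78% and 3.20% in Q. JEN1, the lactate permease gene, had 997, 1420 and 1317 in E240 and 43628, 27599 and 32983 in Q (-4.79 ± 0.45, adjusted p = 4.29e-06). SFC1, which carries succinate and fumarate across the mitochondrial membrane, had 288, 282 and 238 in E240 and 11221, 5024 and 6113 in Q (-4.70 ± 0.34, adjusted p = 7.33e-07). MLS1, the malate synthase gene of the glyoxylate cycle, was at -4.31 ± 0.36 (adjusted p = 1.85e-06). The member that rose was MAE1, the mitochondrial malic enzyme gene, with 1929, 3456 and 3346 in E240 against 446, 261 and 306 in Q (3.09 ± 0.43, adjusted p = 7.23e-05). Its mean was 1204 at 30 min and 519 in log phase. Without Q replicate 1 a second member was called higher, 2 in all.

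Genes of fatty acid oxidation were lower too. Of 16 peroxisomal β-oxidation genes 14 were lower and none higher (median -3.05), or 1 higher without Q replicate 2. POT1, the thiolase gene (YIL160C, chromosome IX, 40191 to 41444, minus strand), had 208, 427 and 391 in E240 against 13376, 12412 and 13191 in Q (-5.31 ± 0.38, adjusted p = 7.33e-07). CTA1, the peroxisomal catalase gene, was at -4.97 ± 0.25 and SPS19, a dienoyl-CoA reductase gene, at -4.95 ± 0.21 (adjusted p = 9.09e-08 for both). Of 29 peroxin genes, which build the organelle, 20 were lower and 1 higher (median -1.29). PEX18, an import co-receptor gene, was at -3.46 ± 0.22 and PEX31, which acts in peroxisome size, at 0.77 ± 0.19 (adjusted p = 4.33e-07 and 0.00395). Of 18 citric acid cycle genes 10 were lower. CIT3, a mitochondrial citrate and methylcitrate synthase gene, was at -4.18 ± 0.28 (adjusted p = 5.38e-07).

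Respiratory genes were called in both directions. Of 40 nuclear genes of the respiratory chain and ATP synthase 13 (32.5%) were lower and 7 (17.5%) higher, with a median of -0.12. Among all genes 29.5% were lower and 29.1% higher. NDE1 and NDE2 encode the external NADH dehydrogenases of the mitochondrion. NDE1 had 4054, 4333 and 3916 in E240 against 1109, 1440 and 1226 in Q (1.71 ± 0.36, adjusted p = 0.00139), and NDE2 had 538, 342 and 316 in E240 against 27142, 6556 and 7527 in Q (-4.83 ± 0.48, adjusted p = 6.21e-06). Q replicate 1 was more than 3-fold above the other Q libraries for NDE2. The 6 tested mitochondrially encoded mRNAs were all lower (median -3.42), COX1 with 15.3, 23.6 and 32.1 in E240 against 279, 381 and 438 in Q. Such RNA lacks a long poly(A) tail as a rule, and the libraries were made from poly(A) RNA.

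**Figure D3:**
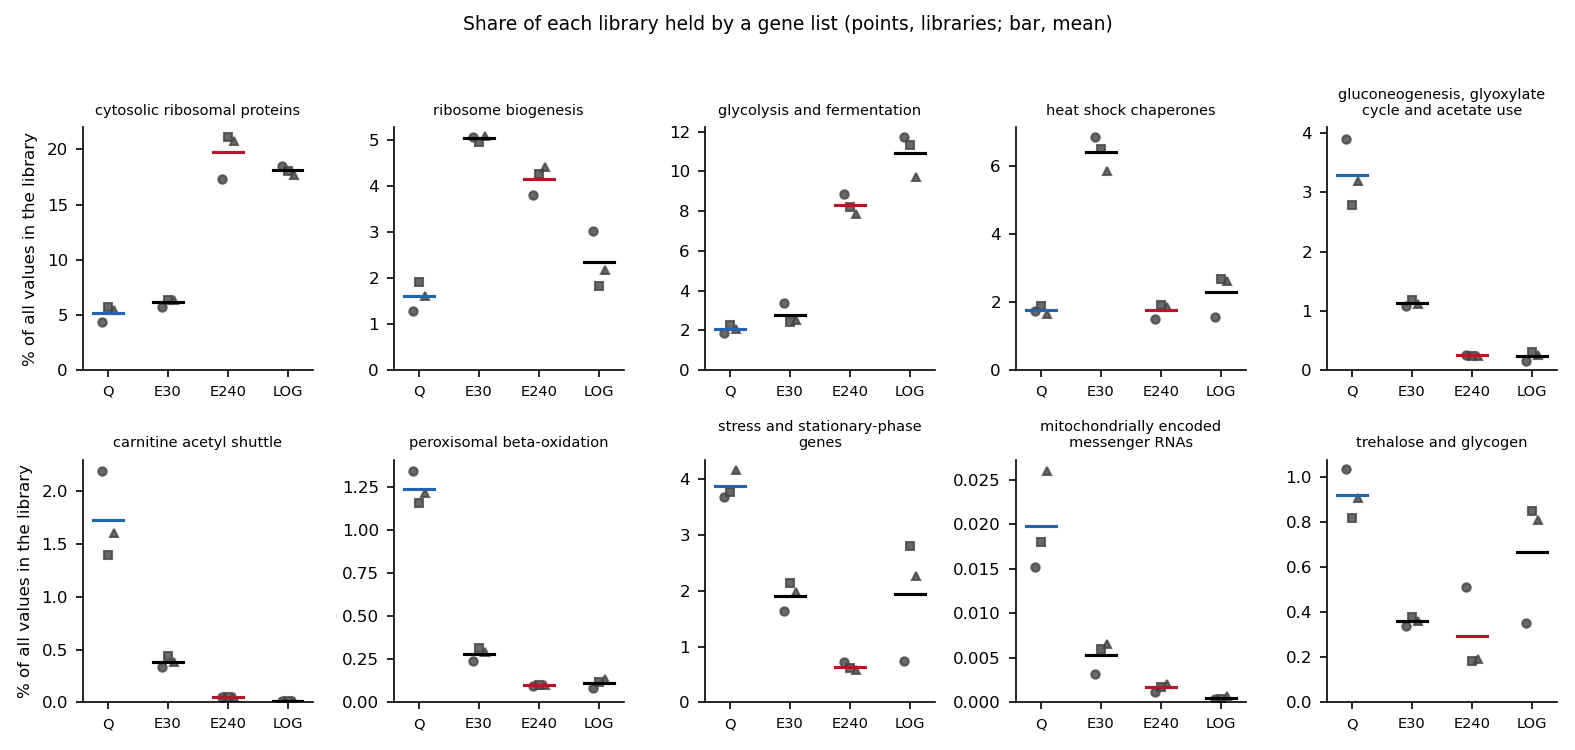
Each panel shows the percentage of all normalised counts of a library that a gene list holds, with a point per library (circle, replicate 1; square, 2; triangle, 3) and a bar at the mean, in the order Q, E30, E240 and LOG. Ribosomal proteins hold 5.18% in Q, 6.13% at 30 min and 19.7% at 240 min, heat shock chaperones are highest at 30 min (6.40%), and the carnitine shuttle drops at each step.

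Some pairs of isozymes changed in opposite directions, and those named first here were picked for it. In branched-chain amino acid metabolism BAT1, the mitochondrial aminotransferase gene used in synthesis (YHR208W, chromosome VIII, 517532 to 518713, plus strand), had 5202, 5971 and 5524 in E240 against 656, 346 and 386 in Q (3.64 ± 0.24, adjusted p = 4.63e-07). Its cytosolic counterpart BAT2 (YJR148W, chromosome X, 705744 to 706874, plus strand) had 1000, 979 and 1000 in E240 against 15970, 9615 and 13362 in Q (-3.68 ± 0.23, adjusted p = 4.33e-07). Neither gene's groups overlapped. The glutamate dehydrogenase genes GDH1 and GDH3 were at 2.75 ± 0.36 and -4.48 ± 0.35 (adjusted p = 4.34e-05 and 1.16e-06). GDH3 had 415, 707 and 647 in E240 and 15440, 10558 and 13122 in Q.

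Acetyl-CoA synthetase changed in the same manner. ACS2, the form needed on glucose (YLR153C, chromosome XII, 445524 to 447575, minus strand), had 3511, 3020 and 2757 in E240 against 600, 322 and 351 in Q (2.91 ± 0.26, adjusted p = 2.95e-06). ACS1, the form of cells without glucose (YAL054C, chromosome I, 42881 to 45022, minus strand), had 305, 284 and 291 in E240 against 8564, 3226 and 3582 in Q (-3.98 ± 0.32, adjusted p = 1.63e-06). The 3 E240 libraries of ACS1 were close together, and Q replicate 1 was the highest of the Q libraries for both genes. At 30 min ACS1 was already at a mean of 954, and ACS2 at 709.

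Among sugar enzymes, hexokinase 2 (HXK2) was at 2.65 ± 0.18 (adjusted p = 6.09e-07) and glucokinase (GLK1) at -3.49 ± 0.49 (adjusted p = 7.79e-05), with 8246, 4709 and 4159 in E240 against 75665, 49338 and 61598 in Q. Hexokinase 1 (HXK1) had 6139, 661 and 832 in E240 against 7859, 4805 and 5543 in Q. E240 replicate 1 lay among the Q libraries, and the change of -1.98 ± 0.80 (adjusted p = 0.0497) did not pass when any library other than E240 replicate 1 was left out (adjusted p = 0.074 to 0.191). It did not pass with the replicate block (0.0568) or TMM scaling (0.0513) either, and edgeR and DESeq2 gave -1.24 and -1.26 (adjusted p = 0.202 and 0.199). For alcohol dehydrogenase, ADH1, which makes ethanol, was at 2.11 ± 0.40 and ADH2, which uses it, at -4.48 ± 0.40 (adjusted p = 0.000721 and 2.67e-06). For glyceraldehyde-3-phosphate dehydrogenase TDH3 was at 2.13 ± 0.31, TDH2 at 2.27 ± 0.50 and TDH1 at -2.80 ± 0.31 (adjusted p = 0.000108, 0.00201 and 1.35e-05). The ADH and TDH genes named share 9.84% to 18.9% of their 75-base stretches with other places in the genome, so a part of their reads is uncertain.

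The pentose phosphate pathway, which makes NADPH and ribose, was split between copies: 4 of 13 genes rose and 5 fell. GND1, the main 6-phosphogluconate dehydrogenase gene, had 7372, 14699 and 13482 in E240 against 1046, 1257 and 1015 in Q (3.36 ± 0.32, adjusted p = 4.82e-06), and GND2 had 268, 342 and 292 in E240 against 4491, 2069 and 2654 in Q (-3.28 ± 0.39, adjusted p = 2.16e-05). The transketolase genes TKL1 and TKL2 were at 3.42 ± 0.23 and -2.70 ± 0.34 (adjusted p = 4.63e-07 and 3.2e-05). The transaldolase gene TAL1 was at 1.21 ± 0.50 (adjusted p = 0.052) and its paralog NQM1 at -3.72 ± 0.70 (adjusted p = 0.000644). With the replicate number as a block TAL1 passed (adjusted p = 0.000366). It also passed with the Q and E240 libraries alone (0.0139), without LOG (0.0177) and with DESeq2 (0.0372). The same held without Q replicate 1 (0.0301) and with replicates 2 and 3 alone (5.77e-07). Under the other alternatives TAL1 did not pass. ZWF1, the only gene of the first enzyme, fell, with 1240, 744 and 809 in E240 against 12518, 6616 and 7993 in Q (-3.26 ± 0.30, adjusted p = 3.88e-06).

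Other pairs moved likewise. ALD6 and ALD4, the cytosolic and mitochondrial acetaldehyde dehydrogenase genes, were at 1.59 ± 0.41 and -2.56 ± 0.55 (adjusted p = 0.00514 and 0.00157). The Hsp70 genes SSA2 and SSA3 were at 2.75 ± 0.34 and -2.42 ± 0.48 (adjusted p = 2.75e-05 and 0.00099), with 52.2% of the 75-base stretches of SSA2 repeated elsewhere. The sterol enzyme genes HMG1 and HMG2 were at 0.90 ± 0.23 and -0.84 ± 0.22 (adjusted p = 0.00448 and 0.00643). Other members of the list did not. Both citrate synthase genes CIT1 (-1.74 ± 0.26, adjusted p = 0.000136) and CIT2 (-3.77 ± 0.35, adjusted p = 3.7e-06) fell, and of the homocitrate synthase genes LYS20 was at -0.72 ± 0.40 and LYS21 at 0.55 ± 0.46 (adjusted p = 0.14 and 0.319), although with the replicate block both passed, in opposite directions (adjusted p = 0.00621 and 0.00551). Of the 52 genes on the list of isozymes and paralogs 19 (36.5%) were higher and 20 (38.5%) lower, beside 29.1% and 29.5% of all genes.

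**Figure D4:**
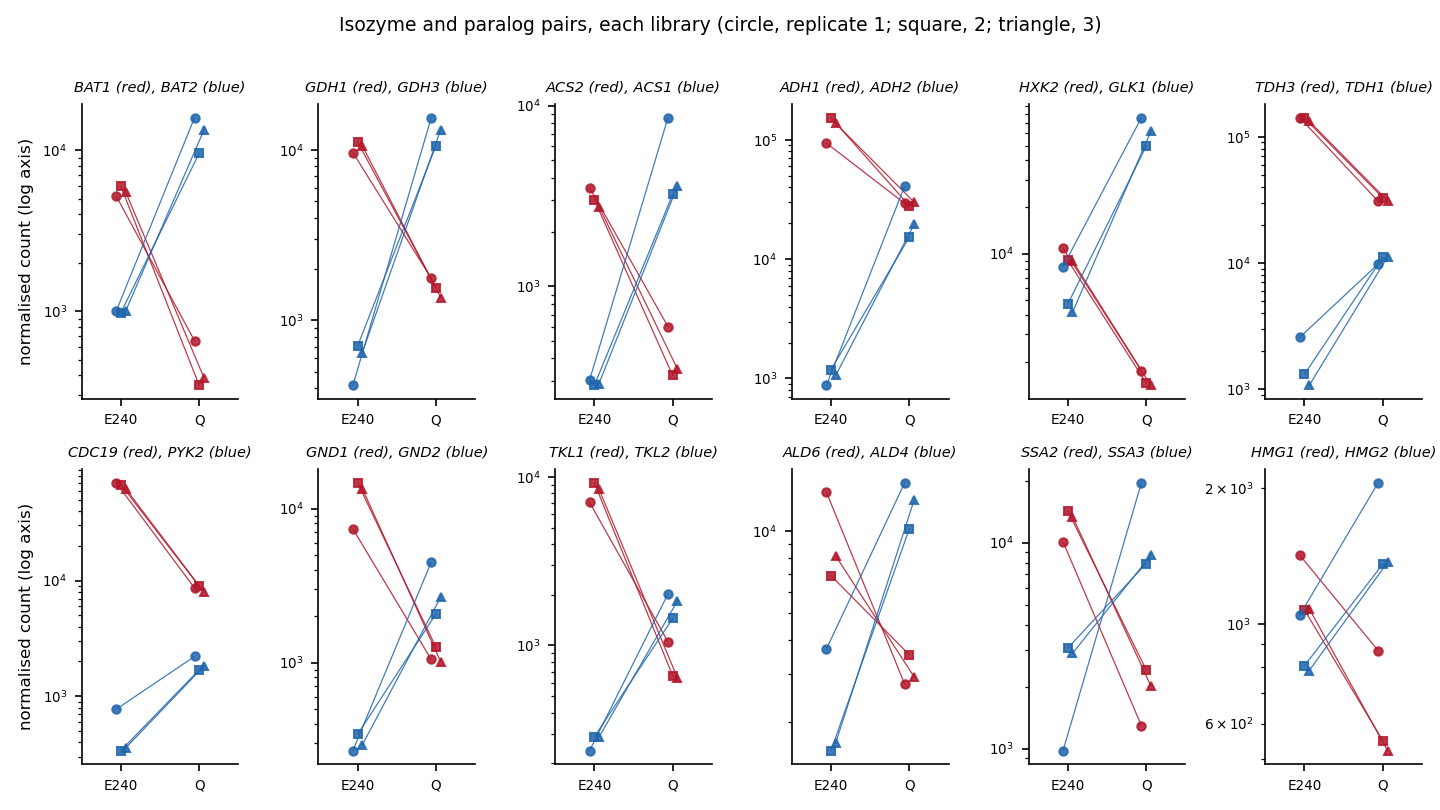
Each panel shows a pair of genes with the normalised count of each library on a log axis, E240 at the left and Q at the right, and lines joining libraries with the same replicate number. In each of the 12 pairs every line of the red gene is higher at E240 and every line of the blue gene lower at E240, from BAT1 and BAT2 (3.64 and -3.68) to HMG1 and HMG2 (0.90 and -0.84).

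Storage and protection genes were low after 240 min. Of 41 stress and stationary-phase genes 33 were lower and 1 higher (median -2.58), and their share was 0.639% ± 0.0751 in E240 and 3.88% ± 0.259 in Q (SD, n = 3 each). SPG4, a stationary-phase gene (YMR107W, chromosome XIII, 483014 to 483361, plus strand), had 473, 1641 and 1477 in E240 against 43690, 59951 and 68728 in Q (-5.75 ± 1.06, adjusted p = 0.000559). RGI2, a gene of respiratory growth, had 271, 324 and 325 in E240 and 16528, 13365 and 14680 in Q (-5.59 ± 0.68, adjusted p = 2.42e-05). SPG1, another stationary-phase gene, was at -5.29 ± 0.91 (adjusted p = 0.000331). The groups of these genes were well separated, and LOG cells had means of 1890 for SPG4, 119 for RGI2 and 385 for SPG1. The cell wall protein gene SED1 was the one called higher (1.03 ± 0.34, adjusted p = 0.0193), and it did not pass without E240 replicate 1 (adjusted p = 0.0723), without Q replicate 3 (0.0527) or with total-count scaling (0.051).

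Trehalose and glycogen genes differed between replicates of E240. Of 20 genes 14 were lower and none higher (median -1.94), with a median of -0.98 between the libraries numbered 1 and of -2.04 between those numbered 2 and 3. GLC3, the glycogen branching enzyme gene, had 3307, 838 and 899 in E240 against 9979, 6849 and 8131 in Q (-2.60 ± 0.57, adjusted p = 0.00184). GSY1, a glycogen synthase gene, had 2829, 589 and 674 in E240 against 6932, 5047 and 5620 in Q (-2.48 ± 0.64, adjusted p = 0.00518). In both genes E240 replicate 1 was more than 3-fold above the other E240 libraries and still below all Q libraries. ATH1, the acid trehalase gene, had 585, 638 and 658 in E240 and 4073, 3568 and 4173 in Q (-2.65 ± 0.40, adjusted p = 0.00013).

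Heat shock chaperones were called at rates near those of all genes, with 9 of 31 higher (29.0%) and 8 lower (25.8%). Among all genes 29.1% were higher and 29.5% lower. With replicates 2 and 3 alone 17 of the chaperone genes were higher, in a fit that called 2318 of all 5871 genes higher. Their share of the library was 1.76% in Q, 6.40% in E30, 1.75% in E240 and 2.28% in LOG. The ribosome-bound Hsp70 gene SSB1 was at 3.12 ± 0.42 (adjusted p = 5.9e-05), and 36.3% of its 75-base stretches are repeated elsewhere. HSP26, a small heat shock protein gene, had 349, 691 and 671 in E240 against 5558, 5495 and 4927 in Q (-3.28 ± 0.46, adjusted p = 7.68e-05). SSA4, the heat-inducible Hsp70, had 1402, 9230 and 8195 in E240 and 1569, 3033 and 3282 in Q, groups that overlap, with a mean of 41287 at 30 min (0.92 ± 0.89 for E240 against Q, adjusted p = 0.391). With replicates 2 and 3 alone SSA4 was at 1.46 and passed (adjusted p = 1.68e-06). Of 30 antioxidant genes 15 were lower and 3 higher. CTT1, the cytosolic catalase gene, was at -3.02 ± 0.42 and TRX1, a thioredoxin gene, at 1.40 ± 0.29 (adjusted p = 7.21e-05 and 0.00123).

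Recycling genes were lower as well. Of 33 autophagy genes 22 were lower and 1 higher (median -1.27). ATG8, whose product coats the autophagosome, had 505, 573 and 575 in E240 against 6248, 7573 and 7292 in Q (-3.67 ± 0.33, adjusted p = 3.06e-06). ATG39, a receptor for autophagy of the nucleus, was at -3.78 ± 0.46 (adjusted p = 2.62e-05), and ATG27, which acts in traffic of Atg9, at 0.90 ± 0.18 (adjusted p = 0.000923). Of 13 genes for vacuolar proteases, their inhibitors and relatives, 8 were lower. TFS1, the inhibitor of carboxypeptidase Y, had 499, 342 and 302 in E240 and 5147, 4254 and 4947 in Q (-3.68 ± 0.47, adjusted p = 3.71e-05). PAI3, the inhibitor of proteinase A, had 119, 172 and 138 in E240 and 1304, 844 and 701 in Q (-2.69 ± 0.38, adjusted p = 8.59e-05). Proteasome genes, in contrast, were called in both directions at a low rate, 5 of 36 higher and 5 lower, and 2 were higher without E240 replicate 2 and 3 without E240 replicate 3 or Q replicate 3. Without E240 replicate 1, E240 replicate 3, Q replicate 2 or Q replicate 3, 3 were lower. With the block 10 were higher, in a fit that called 2010 of all 5871 genes higher.

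The stress response element (STRE, AGGGG) is known as the site read by the factors Msn2 and Msn4. Searched on both strands in the same 250 bases, it stood in 21 of 41 stress gene promoters (51.2%), in 36.0% of those of genes that fell at least 4-fold, in 10.4% of those that rose at least 4-fold and in 19.1% of all tested. The 1098 genes with it had a median change of -0.54 and the 4661 without it 0.14. It is printed in capitals in the same 150 bases of 4 genes with full values above, at chrXII:513922-514071 (TFS1, minus strand), chrXIII:610466-610615 (PAI3, minus), chrV:132870-133019 (GLC3, plus) and chrX:609523-609672 (SFC1, plus).
TFS1: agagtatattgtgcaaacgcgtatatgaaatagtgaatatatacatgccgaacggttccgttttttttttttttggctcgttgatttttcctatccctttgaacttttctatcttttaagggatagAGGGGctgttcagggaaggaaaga
PAI3: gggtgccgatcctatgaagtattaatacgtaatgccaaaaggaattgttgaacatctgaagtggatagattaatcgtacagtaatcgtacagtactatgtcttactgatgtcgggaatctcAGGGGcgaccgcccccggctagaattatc
GLC3: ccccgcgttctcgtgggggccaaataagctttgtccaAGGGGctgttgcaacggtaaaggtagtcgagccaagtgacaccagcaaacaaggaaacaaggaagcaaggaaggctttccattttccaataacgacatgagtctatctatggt
SFC1: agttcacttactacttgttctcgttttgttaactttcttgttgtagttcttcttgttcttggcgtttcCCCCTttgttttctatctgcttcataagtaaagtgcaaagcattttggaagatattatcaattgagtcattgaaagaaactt
In SFC1 the letters are read on the other strand (CCCCT). The motif is not particular to genes that fell: those letters also stand, in lower case, in the sequence of NOP14 printed above.

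**Figure D5:**
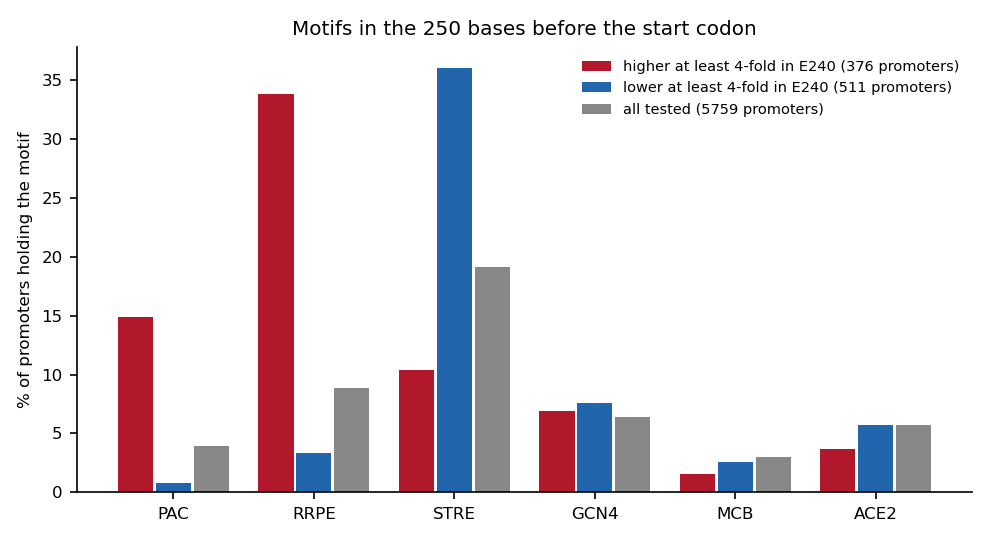
Bars give the percentage of promoters (250 bases before the start codon) that hold each motif on either strand, for genes at least 4-fold higher in E240 (376), at least 4-fold lower in E240 (511) and all tested (5759). PAC and RRPE are most frequent in the first set (14.9% and 33.8%) and STRE in the second (36.0%), while the GCN4 motif stands at 6.91%, 7.63% and 6.39%.

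Genes of amino acid and nucleotide synthesis were higher more often than lower. Of 64 amino acid synthesis genes 43 were higher and 6 lower (median 1.39). LEU1 of leucine synthesis had 8288, 9633 and 9037 in E240 against 1464, 768 and 679 in Q (3.29 ± 0.27, adjusted p = 1.63e-06), and the asparagine synthetase gene ASN1 was at 3.20 ± 0.37 (adjusted p = 1.87e-05). ARO9, an aminotransferase gene of aromatic amino acid breakdown, had 366, 476 and 488 in E240 and 5914, 4619 and 5817 in Q (-3.62 ± 0.21, adjusted p = 2.9e-07). The site of the factor Gcn4 (TGACTC) stood in 50.8% of these promoters and in 6.39% of all tested, although it was about as frequent among genes at least 4-fold higher (6.91%) as among those at least 4-fold lower (7.63%). Methionine and sulfur genes went the other way on balance, 8 of 32 higher and 16 lower. SAM1, an S-adenosylmethionine synthetase gene, was at 3.38 ± 0.40 and MET2, an early gene of methionine synthesis, at -3.15 ± 0.27 (adjusted p = 2.19e-05 and 1.95e-06).

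Of 25 purine genes 13 were higher and 2 lower (1 lower without E240 replicate 2, E240 replicate 3 or Q replicate 1), and of 11 pyrimidine genes 7 were higher and 3 lower. URA7 and URA8 both encode CTP synthase: URA7 had 2789, 5414 and 5400 in E240 against 481, 599 and 582 in Q (2.97 ± 0.30, adjusted p = 7.2e-06), and URA8 had 1574, 1428 and 1262 in E240 against 5000, 2898 and 3885 in Q (-1.44 ± 0.28, adjusted p = 0.000776). Targets of nitrogen catabolite repression, which are off when good nitrogen sources are present, were lower in 20 of 29 cases and higher in none (median -1.46). PUT4, the proline permease gene, had 198, 238 and 210 in E240 and 9380, 4420 and 5146 in Q (-4.79 ± 0.31, adjusted p = 4.33e-07). Permeases of rich medium were split, with 7 of 16 higher and 6 lower. Without E240 replicate 2, E240 replicate 3 or Q replicate 1, 4 were higher, and with total-count scaling 4 were higher and 7 lower. The largest increase there was that of TAT1 (2.64 ± 0.20, adjusted p = 1.14e-06), which overlaps the gene TBRT on the opposite strand, and the labels do not say whether counting used the strand.

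Genes of the cell wall, of sterol synthesis and of secretion were higher more often than lower. PMA1, the plasma membrane proton pump (YGL008C, chromosome VII, 479910 to 482666, minus strand), had 37787, 77158 and 69703 in E240 against 7071, 4558 and 4765 in Q (3.46 ± 0.40, adjusted p = 1.59e-05). Of 33 cell wall genes 19 were higher and 7 lower (4 lower without E240 replicate 2 or E240 replicate 3). UTR2, a chitin-glucan linking enzyme of the wall, had 3241, 3613 and 3428 in E240 and 530, 236 and 199 in Q (3.55 ± 0.36, adjusted p = 7.16e-06). GSC2, a glucan synthase subunit of stressed and sporulating cells, had 1728, 2025 and 1941 in E240 and 10293, 9411 and 9530 in Q (-2.36 ± 0.28, adjusted p = 2.21e-05). Of 28 ergosterol genes 13 were higher and 4 lower, ERG1 with 4140, 7027 and 6521 in E240 against 767, 497 and 499 in Q (3.32 ± 0.25, adjusted p = 9.97e-07). Of 37 SEC genes of the secretory pathway 20 were higher and 3 lower (5 lower with the block).

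Many genes of the cell cycle were higher and fewer were lower. Outside the daughter separation list, a similar or larger number were not called. CLB2, the main mitotic cyclin gene, had 417, 565 and 509 in E240 against 105, 61.2 and 74.9 in Q (2.64 ± 0.35, adjusted p = 4.62e-05). Of 28 genes of the G2/M cluster 13 (46.4%) were higher and 2 lower. Of 54 DNA replication and G1/S genes 25 (46.3%) were higher and 2 lower. Among all genes 29.1% were higher and 29.5% lower. RFC1, the large subunit of the clamp loader, had 1142, 1381 and 1351 in E240 and 314, 348 and 330 in Q (1.96 ± 0.20, adjusted p = 8.48e-06). The MCB motif (ACGCGT) stood in 48.1% of the G1/S promoters and in 2.99% of all tested. Of 17 daughter separation genes 12 were higher and 4 lower (2 lower without E240 replicate 2, E240 replicate 3 or Q replicate 1), whereas their median at 30 min was -0.59. EGT2, a wall gene of early G1, had 2524, 2099 and 1841 in E240 and 265, 322 and 375 in Q (2.75 ± 0.27, adjusted p = 5.24e-06), with a mean of 207 at 30 min. Of 11 histone genes 4 were higher and none lower, and with the block 8 were higher. CDC31, the centrin gene of the spindle pole body, had 776, 961 and 924 in E240 and 9331, 12298 and 10879 in Q (-3.61 ± 0.18, adjusted p = 9.09e-08).

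The study concerns acetate moved between sites on histones, which makes the enzymes that add and remove it of interest. Of 42 genes of histone acetyltransferase complexes 16 were higher and 11 lower, and of 36 deacetylase and corepressor genes 4 were higher and 9 lower (7 higher with the block). Genes called in either direction made up 64.3% of the first list and 36.1% of the second, beside 58.6% of all genes. Both medians, 0.10 and 0.05, turn negative when libraries are scaled to total counts (-0.09 and -0.15, with 12 acetyltransferase genes higher and 14 lower), and the first also without E240 replicate 1 (-0.08). GCN5, the catalytic subunit of SAGA, had 1026, 1027 and 1031 in E240 against 732, 672 and 759 in Q (0.51 ± 0.15, adjusted p = 0.0109), a call lost with total-count scaling (0.32, adjusted p = 0.112). ESA1, that of NuA4, had 668, 571 and 556 in E240 and 969, 672 and 684 in Q (-0.36 ± 0.26, interval -0.93 to 0.21, adjusted p = 0.26). The deacetylase gene RPD3 had 939, 628 and 598 in E240 and 983, 535 and 514 in Q (0.13 ± 0.30, interval -0.52 to 0.77, adjusted p = 0.73), and HDA1 had 799, 934 and 976 in E240 and 251, 366 and 369 in Q (1.47 ± 0.24, adjusted p = 0.000207). EAF3, a chromodomain protein gene shared by NuA4 and a Rpd3 complex, fell furthest on both lists, with 1650, 1399 and 1498 in E240 against 18083, 9501 and 11013 in Q (-3.03 ± 0.25, adjusted p = 1.67e-06). Intervals here cover 95%.

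Genes of acetyl-CoA metabolism were lower more often than higher. Of 27 genes that make or use acetyl-CoA 13 were lower and 5 higher (median -0.72, or -0.33 without Q replicate 1). The list is not separate from those above, since YAT1, for example, is also on the carnitine shuttle list. ALD5, a mitochondrial aldehyde dehydrogenase gene, had 5745, 5200 and 5093 in E240 against 642, 579 and 535 in Q (3.19 ± 0.17, adjusted p = 1.71e-07). The E240 libraries were close together and far above Q. Of 49 chromatin remodeler genes 19 were higher and 9 lower. RVB1, a helicase gene of the INO80 and SWR1 complexes, had 2840, 4459 and 4367 in E240 against 837, 811 and 814 in Q (2.21 ± 0.23, adjusted p = 8.98e-06), and SNF6, a SWI/SNF subunit gene, had 953, 1417 and 1269 in E240 against 3473, 3801 and 4336 in Q (-1.69 ± 0.36, adjusted p = 0.00151).

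Signalling genes were called in both directions, at rates near those of all genes. Of 36 genes of the Ras, protein kinase A, TOR and Snf1 pathways 9 were higher and 10 lower (median -0.07). RAS1, a GTPase gene that acts upstream of protein kinase A, had 1221, 935 and 1042 in E240 against 363, 191 and 201 in Q (2.13 ± 0.30, adjusted p = 7.79e-05). SIP2, a β subunit gene of the Snf1 kinase, had 526, 290 and 319 in E240 against 7239, 3226 and 4217 in Q (-3.66 ± 0.33, adjusted p = 3.16e-06), and GPA2, a G protein gene of glucose sensing, was at -3.24 ± 0.43 (adjusted p = 5.08e-05). Replicate 1 was the highest library of both groups for SIP2. Of 20 genes of kinases and transcription factors of quiescence entry 11 were lower and 2 higher (1 higher without E240 replicate 1, Q replicate 2 or Q replicate 3, and 4 with the block). IGO2, a target of the Rim15 kinase, had 577, 806 and 769 in E240 and 3389, 3706 and 3824 in Q (-2.36 ± 0.30, adjusted p = 3.27e-05).

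Metal uptake genes were lower for the most part, and phosphate genes were called in both directions. Of 30 iron and zinc uptake genes 18 were lower and 3 higher (median -0.89). ARN2, a siderophore transporter gene, had 711, 1521 and 1434 in E240 against 12309, 13948 and 15523 in Q (-3.58 ± 0.54, adjusted p = 0.000127), and FTR1, the high-affinity iron permease gene, had 2417, 3186 and 3133 in E240 against 1199, 805 and 827 in Q (1.64 ± 0.32, adjusted p = 0.00083). Of 22 phosphate response genes 4 were lower and 6 higher. PHO89, a sodium-coupled phosphate transporter gene, had 163, 125 and 139 in E240 and 2643, 2490 and 2446 in Q (-4.15 ± 0.32, adjusted p = 1.23e-06). PHO3, an acid phosphatase gene, had 1753, 2050 and 1982 in E240 and 537, 372 and 426 in Q (2.13 ± 0.23, adjusted p = 1.06e-05). For all 4 genes the groups did not overlap.

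Lipid genes were called in both directions. Of 31 fatty acid and phospholipid genes 11 (35.5%) were higher and 8 (25.8%) lower, beside 29.1% and 29.5% of all genes. With total-count scaling 9 were higher and 11 lower. ELO3, a fatty acid elongase gene, had 2179, 3273 and 3112 in E240 against 509, 607 and 570 in Q (2.32 ± 0.22, adjusted p = 4.47e-06). OPI3, a methyltransferase gene of phosphatidylcholine synthesis, had 1316, 1701 and 1532 in E240 against 16702, 14928 and 16359 in Q (-3.40 ± 0.33, adjusted p = 4.59e-06), and INO1, the inositol phosphate synthase gene, was at -2.83 ± 0.55 (adjusted p = 0.000846).

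Genes of traffic into the nucleus and the mitochondrion were higher more often than lower. Of 47 nuclear pore and karyopherin genes 25 were higher and 6 lower (median 0.73). GSP1 and GSP2 both encode Ran. GSP1 had 7735, 6174 and 6218 in E240 against 1213, 977 and 848 in Q (2.73 ± 0.37, adjusted p = 5.66e-05), and GSP2 had 524, 253 and 249 in E240 against 1848, 946 and 924 in Q (-1.87 ± 0.40, adjusted p = 0.00152). Of 33 mitochondrial import genes 14 were higher and 3 lower (5 lower with the block), and of 42 splicing factor genes 11 were higher and 8 lower (8 and 12 with total-count scaling). PRP43, a helicase gene that acts in splicing and in ribosome assembly, was at 2.61 ± 0.38 (adjusted p = 9.55e-05).

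Polarity genes were higher more often than lower, and genes of deoxyribonucleotide synthesis were called in both directions. Of 31 actin, septin and polarity genes 14 were higher and 3 lower (1 lower without E240 replicate 2, E240 replicate 3 or Q replicate 1, and 5 with the block). CDC12, a septin gene, had 1118, 1103 and 1008 in E240 against 265, 216 and 203 in Q (2.24 ± 0.18, adjusted p = 1.28e-06). Of 10 ribonucleotide reductase genes and regulators 4 were higher and 2 lower, RNR1 with 567, 1610 and 1421 in E240 against 258, 322 and 271 in Q (1.95 ± 0.49, adjusted p = 0.00426) and RNR3 with 184, 306 and 274 in E240 against 900, 739 and 827 in Q (-1.72 ± 0.24, adjusted p = 7.05e-05). Of 18 genes of G1 cyclins and Start 5 were higher and 2 lower (2 higher without E240 replicate 2 or E240 replicate 3, and 3 without Q replicate 2). With total-count scaling 1 was higher and 2 were lower. The G1 cyclin gene CLN2 was at 0.82 ± 0.23 (adjusted p = 0.00859, or 0.0522 with total-count scaling), and WHI5, the repressor of Start, at -1.07 ± 0.27 (adjusted p = 0.00482).

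Genes that mark other states of the yeast life cycle were also read. Of 50 meiosis and sporulation genes 23 were lower and 6 higher (3 higher without E240 replicate 2, E240 replicate 3 or Q replicate 3). DMC1, the meiotic recombinase gene, had 137, 242 and 218 in E240 against 649, 917 and 1348 in Q (-2.26 ± 0.36, adjusted p = 0.000194), while IME1, the gene of the initiator of meiosis, had 108, 87.9 and 91.0 in E240 against 34.9, 45.2 and 46.0 in Q (1.17 ± 0.30, adjusted p = 0.0054). Of 35 mating genes 14 were higher and 8 lower (10 and 10 with total-count scaling). Genes specific to each mating type were measured together: the a-cell transporter gene STE6 had 2083, 2306 and 2222 in E240 against 614, 560 and 632 in Q, and STE3, the a-factor receptor gene of α cells, had 105, 149 and 150 in E240 against 488, 372 and 409 in Q. STE6 rose by 1.87 ± 0.19 (adjusted p = 7.51e-06) and STE3 fell by 1.65 ± 0.22 (adjusted p = 5.19e-05).

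Small non-coding RNAs stood among the largest decreases. snR14, the U4 small nuclear RNA of the spliceosome (chromosome V, 167427 to 167586, minus strand), had 27.2, 44.7 and 49.2 in E240 against 8173, 2977 and 2777 in Q, the largest fall of all tested genes (-6.67 ± 0.45, adjusted p = 5.16e-07). The other small nuclear RNAs tested, chosen after their values were seen, were LSR1 (U2, -4.64 ± 0.36), snR19 (U1, -4.30 ± 0.34) and snR6 (U6, -2.15 ± 0.54), and all passed. SCR1, the RNA of the signal recognition particle, had 288, 776 and 691 in E240 and 9205, 9031 and 10651 in Q (-4.16 ± 0.41, adjusted p = 6.04e-06), and RPR1, the RNA of RNase P, was at -4.35 ± 0.58 (adjusted p = 5.21e-05). TLC1, the telomerase RNA, had 1638, 1946 and 1904 in E240 against 1855, 1327 and 1616 in Q (0.20 ± 0.22, adjusted p = 0.453). Of 72 small nucleolar RNAs 29 were lower and 6 higher (median -0.68). Most of these RNAs carry no long poly(A) tail and the libraries were made from poly(A) RNA, so the values count the captured part; the part that tailing plays was not tested.

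Position along the chromosome also went with the change. Of 169 protein-coding nuclear genes within 20 kb of a chromosome end 92 were lower and 12 higher (median -0.93), while of 5590 farther genes 1584 were lower and 1689 higher (median 0.06).

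Some genes can be bounded as little changed. For 94 genes the 95% interval of the change lay within -0.5 and 0.5, and for 1414 within -1 and 1. Among those 94 the genes with the highest mean counts were SPT16, TFA1, APL5, SNF7 and LYS4. SPT16, a histone chaperone gene of the FACT complex, had 2977, 2691 and 2880 in E240 against 2873, 2715 and 2605 in Q (0.06 ± 0.18, interval -0.33 to 0.45). SNF7, a gene of the ESCRT-III complex, had 1971, 2017 and 2017 in E240 and 2190, 2155 and 2045 in Q (-0.09 ± 0.17, interval -0.45 to 0.28).

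Genes outside the lists completed the largest changes. BSC1 (YDL037C, chromosome IV, 384601 to 385587, minus strand) had the largest increase, with 280, 332 and 266 in E240 against 0, 20.4 and 18.7 in Q (5.28 ± 0.88, adjusted p = 0.000276). The 0 is that of the shallowest library, where 1 read counts 6.97 units, so the fitted fold depends on the added 1. Every E240 library was above every Q library, and a part of its sequence is repeated elsewhere. HMT1, an arginine methyltransferase gene, had 2585, 3578 and 3494 in E240 and 481, 239 and 221 in Q (3.43 ± 0.32, adjusted p = 4.13e-06). AQR1, a plasma membrane transporter gene, had 389, 2014 and 1708 in E240 and 55.8, 157 and 140 in Q (3.35 ± 0.58, adjusted p = 0.00034), with replicate 1 the lowest library on both sides. BI4, a maturase read from an intron of mitochondrial COB, had 2.09, 1.63 and 2.98 in E240 and 97.6, 214 and 235 in Q (-5.75 ± 0.44, adjusted p = 9.89e-07). Its E240 values are near the added 1, so the size of this fold also depends on it. BI4 overlaps COB, BI3 and BI2 on the same strand, so its counts cannot be assigned to it alone. The limit given above for poly(A) libraries and mitochondrial RNA applies here too.

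The comparisons along the time course differed in how many genes they called. At an adjusted p under 0.05, 44.4% of genes differed between E30 and Q, 27.3% between E240 and E30 and 7.36% between LOG and E240, comparisons that share libraries with the one described here. The LOG libraries had the widest spread (median SD of 0.416 log2 units, against 0.234 in E240 and 0.247 in Q), the part of which in the last percentage was not tested. Genes of the respiratory chain had a median of 1.09 for LOG over E240, trehalose and glycogen genes of 1.22 and stress genes of 1.18, while ribosomal protein genes were at -0.10. ADY2 had a mean of 86196 in Q, 14361 in E30, 2034 in E240 and 152 in LOG. PMA1 had a mean of 5465 in Q, 17340 in E30, 61549 in E240 and 97576 in LOG.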

How the data were processed

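The authors deposited 1 table of normalised counts per gene, a signal of raw counts divided by a factor for each library, for 12 poly(A) RNA libraries sequenced as 75-base single-end reads. Reads were processed with STAR 2.5.2a, HTSeq 0.6.1, bedtools, DESeq and DESeq2 against sacCer3, per the submitters' processing notes; the labels do not say whether counting used the strand. Dividing by the value of 1 read gave whole reads for every value within 1e-06. Tests were made with limma 3.58.1 (R 4.3.3) on log2(value + 1) over all 12 libraries in 4 groups (8 residual degrees of freedom), with Benjamini-Hochberg adjustment and a threshold of 0.05. Of 6120 genes, 249 with a mean under 10 were not tested. The fit was also run on simulated counts, drawn independently for each library and without a shared shift of replicate 1. That run cannot show how the fit handles such a shift.

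Alternatives were total-count and TMM scaling, pseudocounts of 0.5 and 8, other filters, edgeR 4.0.16 and DESeq2 1.42.0 on the recovered reads, fewer groups, each library left out, replicates 2 and 3 alone, and a replicate block. Libraries with the same replicate number deviated together (correlations of 0.426, 0.303 and 0.389). Replicates 2 and 3 deviated together across numbers as well. The correlation was 0.380 for E240 replicate 2 with Q replicate 3, and 0.350 for E240 replicate 3 with Q replicate 2. These values therefore do not show that replicates 2 and 3 were paired by number. The values given are from the fit without the block, and blocked ones are given for some of the genes and lists where they change a call.

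The genes named are the 12 largest rises and 12 largest falls among called genes whose groups did not overlap and whose higher group averaged 50 or more, up to 3 rises and 3 falls of each of 54 gene lists, the isozyme list and a few acetate and histone genes, the 8 highest genes of each group and the 5 highest steady genes; only some of them are described. The lists, members and tests were chosen with earlier results of these data known. Promoter sequences are from the R64 assembly of NCBI RefSeq, the same assembly as sacCer3.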

Additional observations from a re-analysis of the deposited data

How the results depend on the processing

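Numbers of genes called higher and lower stayed within 1.5 times of 1708 and 1734 under every alternative run. Leaving out each library in turn gave 1440 to 1626 higher and 1494 to 1669 lower, edgeR gave 1680 and 1774, DESeq2 1755 and 1823, total-count scaling 1375 and 2028, and replicates 2 and 3 alone, the largest move, 2318 and 2309. With the replicate number as a block 2010 were higher and 1991 lower, and 3440 of these 4001 calls were shared in sign with the fit without it. Of 320 named genes, 27 lost a call under some alternative and 10 gained one. Signs reversed for 7 genes, none of them called. PDC5 stood at -0.129 with DESeq2, -0.156 with edgeR, -0.305 with replicates 2 and 3 alone and -0.0888 with total-count scaling, and between -0.475 and 0.462 when each library was left out. COX5A stood at 0.106 with replicates 2 and 3 alone and between -0.193 and 0.0059 with each library left out. RPD3 stood at -0.0689 with total-count scaling and between -0.0774 and 0.429 with each library left out. TFA1 stood at -0.162 with total-count scaling and between -0.0498 and 0.175 with each library left out. LYS4 stood at -0.0724 with replicates 2 and 3 alone, -0.148 with total-count scaling and between -0.0856 and 0.138 with each library left out. SPT16 and APL5 stood at -0.136 and -0.125 with total-count scaling. The cause was not tested. Medians of the lists of proteasome genes, fatty acid and phospholipid genes, permeases of rich medium and histone acetyltransferase and deacetylase genes also changed sign with total-count scaling (-0.10, -0.07, -0.17, -0.09 and -0.15). Q replicate 1, with 1195233 reads, limits what can be said of genes with few counts in quiescent cells: 17 tested genes were at 0 there, 5 of them called.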
